A study of Mus musculus with 11 samples.

Results

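The genes described here are 34 interferon-stimulated antiviral genes, listed by symbol, of which 33 were measured among 31053 genes in single-cell RNA libraries of aged mouse lung. Mx2, a listed MX GTPase, is not analysed here. The genes were chosen by name, with their summed levels by genotype and cell lineage in these libraries already in view, so these levels are the measured values that chose them. The fold changes and calls given below for single genes therefore describe these libraries, and their number is no independent evidence that the genes as a set differ between genotypes.

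The libraries come from dissociated whole lung of mice aged 18 to 20 months and fall into 4 genotypes. WT is wild type (+/+), with 1 library. The p21Het mice are p21 heterozygotes (+/-), with 3 libraries, the p21mTert mice are +/mTert, with 5, and the p21mTertCD mice are +/mTertCD, with 2. Cells were isolated with dispase and collagenase, and no sort is recorded. WT, p21Het library 1 (19 months) and p21mTert library 1 (20 months) belong to the first deposit, and the other 8 libraries, all from mice of 18 months, to a later one. All p21mTertCD libraries are thus in the later deposit. Whether each library is 1 mouse or a pool of mice is not given in the sources used here, so p-values measure only the spread between libraries. The single WT library enters no test, and its values are given beside the others for most of the levels printed.

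Interferons are secreted proteins that warn cells of infection. Type I and type III interferons act through receptor kinases that activate a transcription factor complex holding STAT2 and IRF9, and this complex binds a DNA element called the ISRE upstream of many genes. Their products sense foreign nucleic acid, degrade viral RNA, starve viruses of nucleotides, block entry or release of virus particles and amplify or damp the signal itself. Type II interferon, Ifng, acts through a different element, the GAS. In lung, macrophages, monocytes, plasmacytoid dendritic cells and epithelium are known sources and targets of these signals.

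Promoters of 6 genes called in classical monocytes below are shown first, because they let the binding element be seen in the sequence itself. That of Ifit3, called in no lineage, is added because it is identical to that of its neighbour Ifit3b. RefSeq promoters (GRCm38.p6, 250 bases before to 50 bases after the transcription start) were matched by symbol for 24 of the measured genes. The ISRE core was searched as GAAA, any 2 bases and GAAA again, on both strands, and overlapping matches were kept. It was found in promoters of 13 of these 24 genes, against 3.99% of 27025 genes. The GAS element, TTCNNNGAA, was found in 6 of the 24, against 9.55% of genes. A match is a description of the letters and does not show that a factor binds. Each sequence below is written 5′ to 3′ in the direction of its gene, with the matches to the ISRE core in capitals. A match on the opposite strand reads TTTC, 2 bases and TTTC.
Stat2, chr10:128270248-128270330, plus strand: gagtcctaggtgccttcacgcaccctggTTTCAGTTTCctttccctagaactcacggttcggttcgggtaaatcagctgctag
Isg15, chr4:156200830-156200941, minus strand: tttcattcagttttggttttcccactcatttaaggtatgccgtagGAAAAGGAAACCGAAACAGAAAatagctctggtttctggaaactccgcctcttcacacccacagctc
Ifih1, chr2:62646206-62646268, minus strand: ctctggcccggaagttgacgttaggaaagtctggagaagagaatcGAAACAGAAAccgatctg
Oas3, chr5:120777680-120777779, minus strand: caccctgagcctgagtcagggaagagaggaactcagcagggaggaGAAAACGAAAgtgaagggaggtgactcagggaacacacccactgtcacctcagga
Bst2, chr8:71537542-71537647, minus strand: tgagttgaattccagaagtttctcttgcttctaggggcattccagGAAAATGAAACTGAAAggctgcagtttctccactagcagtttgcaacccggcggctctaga
Rsad2, chr12:26456518-26456617, minus strand: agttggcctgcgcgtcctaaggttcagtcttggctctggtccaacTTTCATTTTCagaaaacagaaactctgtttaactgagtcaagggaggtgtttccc
Ifit3, chr19:34583328-34583461, plus strand: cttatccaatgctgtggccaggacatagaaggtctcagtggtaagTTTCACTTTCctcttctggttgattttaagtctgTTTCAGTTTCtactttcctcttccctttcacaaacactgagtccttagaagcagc

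Isg15 carried 3 overlapping matches, the first of them 78 bases before the start (position -78). Oas3 had 1 match at -75 and Rsad2 1 at -120, on the opposite strand. The single match of Stat2 lay further out, at -222. In Ifih1 the match lay after the start, at position 32. Ifit3 and its neighbour Ifit3b were identical over all 134 bases of the stretch printed for Ifit3, which in Ifit3b lies at chr19:34607724-34607857, so each letter shown holds for both genes.

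Of the 18 genes called in classical monocytes below, 12 had a promoter in the table and 7 of these held the ISRE core: the 6 called genes printed above and Trim30a. Of the other 15 measured genes, 12 had a promoter and 6 held the core, namely Ifit1, Ifit3, Ifit3b, Ifitm3, Oas1a and Ddx58. Irf7, Oasl2, Cmpk2, Ifi35 and Xaf1 were called although these letters were not in the window searched, which says nothing about their factors.

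The files hold 81983 cell barcodes, and 69267 cells passed the filter of 1000 to 30000 UMIs (counted RNA molecules) and at most 14% mitochondrial UMIs. Total UMIs per library ran from 42038434 to 85988955, and filtered cells from 4721 to 8525. Any pair of libraries shared 9 to 83 barcodes. Tert, the gene added in the knock-in, checks only part of the labels. Over all cells its level was 1.13 CPM (its UMIs per 1000000 UMIs of the library) in WT, 0.544 to 0.842 in p21Het, 2.00 to 3.28 in p21mTert and 1.90 to 2.59 in p21mTertCD. It was higher in every knock-in library than in the others. The p21mTert and p21mTertCD ranges overlap, so it does not tell these 2 labels apart. Cdkn1a, the gene for p21, was 155 CPM in WT. The p21Het libraries had 136, 183 and 187 CPM, the p21mTert libraries 124, 160, 148, 155 and 126, and the p21mTertCD libraries 174 and 118. It was below WT in 1 of the 3 p21Het libraries, so its level does not separate the heterozygotes from WT. Cell makeup varied between libraries: neutrophils made up 2.64% to 24.9% of cells, with the highest share in p21Het library 3. B cells ran from 1.74% (p21mTertCD library 1) to 38.2% (WT), and T cells from 12.2% to 33.9% (p21mTertCD library 1).

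Each cell was placed in 1 of 16 lineages by 8 marker genes per lineage: the lineage with most detected markers was taken if it had at least 3 and at least 2 more than any other. Names of lineages below stand for cells that passed this gate. It placed 2437 cells as classical monocytes (16.7% of them at the edge of the gate), 2208 as non-classical monocytes, 5634 as neutrophils (3.75% at the edge) and 7204 as endothelial cells. The level of a gene in a lineage, in CPM, is its summed UMIs per 1000000 UMIs of that lineage in that library. Levels are compared between lineages for 1 gene at a time, since they are not scaled to gene length.

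Across lineages, no single cell type led for most of the genes. Classical monocytes had the highest median over libraries for 8 of the 33 genes, neutrophils for 6, plasmacytoid dendritic cells for 5, endothelial cells for 4, and ciliated and AT1 cells (flat alveolar epithelium) for 3 each. For 28 of the 33 the range over libraries of the leading lineage overlapped that of the next, so their order is not fixed. The other 5 stood apart. Bst2, tetherin, which holds budding virus on the cell surface, had a median of 3798 CPM in plasmacytoid dendritic cells (3 libraries, 3788 to 4099) and of 475 in endothelial cells (396 to 553). Stat2, a subunit of the interferon-activated complex, also led there, with 102 against 50.8 in endothelial cells. Oasl2, an OAS-like protein, led in neutrophils with 230 (137 to 450.5), against 52.4 (21.3 to 121) in classical monocytes.

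Ciliated cells held the remaining 2 of these. Usp18, the protease that removes ISG15 from proteins and damps the type I receptor, had a median of 132 CPM there (84.6 to 156), against 19.1 (0 to 38.3) in AT1 cells. Ifi35, an interferon-induced leucine-zipper protein, had 343 (278 to 388) against 80.9 in endothelial cells. Among myeloid cells, Isg15 led in neutrophils with a median of 305 (216 to 731). Ifitm3, which stops virus membranes from fusing with the cell, led in classical monocytes with 4156 (2441 to 5095), against 2213 in non-classical monocytes. Ifi27l2a, a small interferon-induced membrane protein, had 1188 (466 to 3161) in classical monocytes. A median under 1 CPM was found for 11 of the genes in alveolar macrophages, in AT2 cells (surfactant-making epithelium) and in plasmacytoid dendritic cells, for 17 in erythroid cells and for 1 in classical monocytes. Depth differs between these lineages. Libraries held 2868888 to 9981871 UMIs of AT2 cells, 288290 to 423207 of plasmacytoid dendritic cells and 81793 to 1744958 of erythroid cells. In plasmacytoid dendritic cells 1 UMI is already above 1 CPM, so such a median there means 0 UMIs. These counts are therefore not comparable between lineages.

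Rsad2, viperin, an enzyme that makes a chain-terminating nucleotide, was the 1 gene that led in erythroid cells, with a median of 604 CPM over 9 libraries (303 to 1250). Its level there was 1250 and 891 in p21Het libraries 2 and 3, and 604 and 665 in the p21mTertCD libraries. In p21mTert libraries 1 to 5 it was 513, 610, 303, 411 and 513. Of the erythroid cells, 49.8% were at the edge of the gate. Erythroid cells numbered 464 and 343 in those p21Het libraries, against 10 in p21Het library 1 and 159 and 62 in p21mTertCD. In p21mTert libraries 1 to 5 they numbered 25, 189, 257, 111 and 255.

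**Figure D1:**
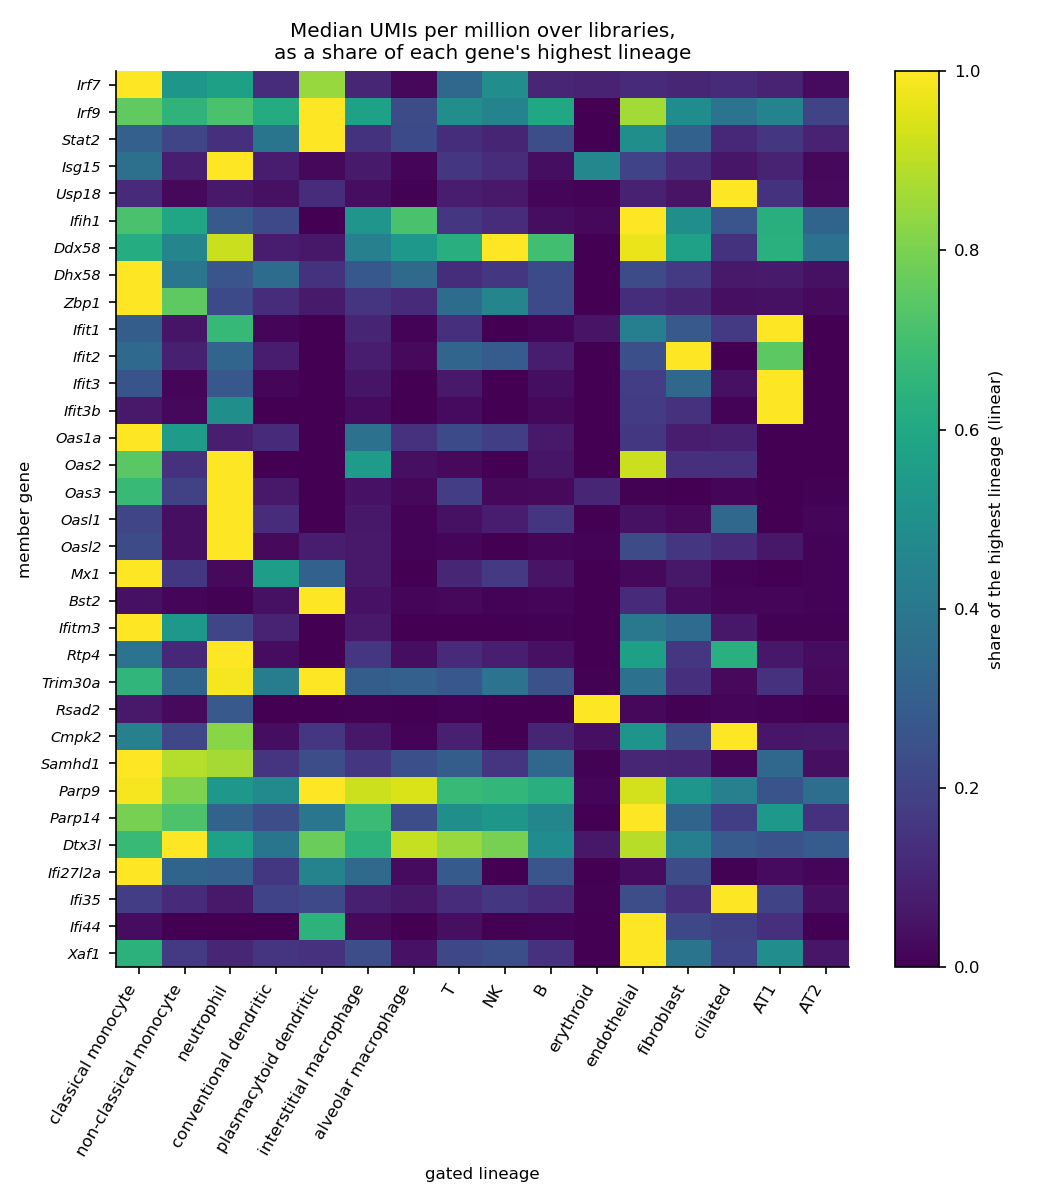
Median CPM over libraries for the 33 measured genes (rows) in 16 gated lineages (columns), each divided by the gene's highest lineage, on a linear colour scale from 0 to 1. Bright cells gather in the classical monocyte, neutrophil, plasmacytoid dendritic and endothelial columns, while Bst2, Usp18, Ifi35 and Oasl2 are bright in 1 lineage each.

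Summed over all cells, no member was called in any of the 3 comparisons between genotypes, where called means a Benjamini-Hochberg adjusted p under 0.05 over all 17503 genes in edgeR's quasi-likelihood test. The share of all genes called was 0.0114% for p21mTert against p21Het, 0.00571% for p21mTert against p21mTertCD and 0.12% for p21mTertCD against p21Het. At an unadjusted p under 0.05 the counts of members were 2, 28 and 19, against 7.24%, 16.1% and 6.26% of all genes, and DESeq2 called 0, 17 and 4. DESeq2's share of all genes over all cells is not given here. These comparisons share their groups, so they are not independent of each other.

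The median log2 fold change of the 33 genes was -0.21 for p21mTert against p21Het, with 5 of 33 above 0, but it turned to 0.11 without p21Het library 3. It was -0.83 for p21mTert against p21mTertCD, with 0 of 33 above 0, and 0.61 for p21mTertCD against p21Het, with 33 of 33 above 0. Over all genes the medians were 0.01, 0.02 and -0.03. Levels in p21mTertCD lay above all p21mTert libraries for 30 of the 33, a pattern met in 4.28% of all genes, and above all p21Het libraries for 22, met in 6.72%. No member showed the opposite pattern, which 15.9% and 5.79% of genes did.

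Library p21mTertCD 1 was the highest of the 11 for 22 of the 33 genes and p21mTertCD 2 for 6. p21Het library 3 was highest for 4, while p21Het library 2 was lowest for 15. Isg15, a ubiquitin-like modifier, stood at 34.3, 37.4 and 84.8 CPM in p21Het libraries 1 to 3, at 45.9, 53.9, 35, 37.3 and 64.7 in p21mTert libraries 1 to 5, at 113 and 71.6 in p21mTertCD and at 33.5 in WT. The third p21Het library was above every p21mTert library and above p21mTertCD library 2, so p21Het overlapped both other groups.

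In p21Het library 3, neutrophils supplied a median of 12.3% of each member's UMIs (0% to 62.7% over the genes), against 2.46% in p21Het library 2 and 2.90% in library 1. They held 13.8% of all UMIs of p21Het library 3, so the members' median was not above that share, while for Isg15 alone neutrophils held 39.8%. In p21mTertCD library 1 the members' median was 14.6% and the Isg15 share 41.4%, against 6.41% of all UMIs. With neutrophils left out, an alternative chosen after the data had been seen, Isg15 was 28.8, 34.4 and 59.2 in p21Het, 34.8, 39, 31.1, 29.9 and 37.9 in p21mTert, with 70.9 and 53.7 in p21mTertCD and 27.3 in WT. The members' median log2 fold change for p21mTertCD against p21Het was then 0.54, with 32 of 33 above 0, and for p21mTert against p21mTertCD -0.68. For Isg15, p21Het library 3 and both p21mTertCD libraries were above the other p21Het libraries in these values. For Rsad2 the log2 fold change for p21mTertCD against p21Het was -0.58 without neutrophils. The part of neutrophils in the levels over all cells was not tested.

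**Figure D2:**
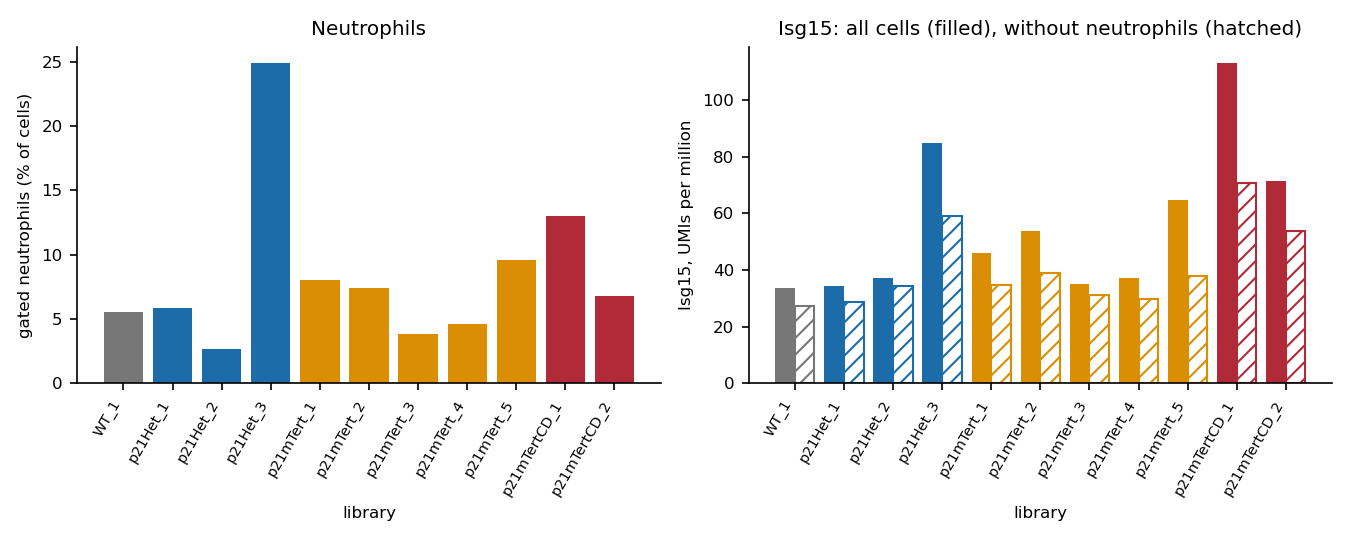
Left, gated neutrophils as a percent of filtered cells in each library. Right, Isg15 in CPM of the same libraries over all cells (filled bars) and without neutrophils (hatched bars), coloured by genotype. The p21Het library 3 bar reaches 24.9% on the left, and its Isg15 bar is 84.8 with neutrophils and 59.2 without.

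Members of other roles that were named by the fixed rule and were called in no lineage are given over all cells. Usp18 was 11.5, 9.35 and 10.1 CPM in p21Het, 12.5, 14.9, 12.7, 14.6 and 12.7 in p21mTert, 15.1 and 22.1 in p21mTertCD and 12.5 in WT. The 3 groups did not overlap and stood in that order over all cells. Usp18 was named for its small p for p21mTert against p21Het over all cells, so its separation there was selected for. The share of all genes with 3 such groups is not given here. In ciliated cells, where the gene is highest, it was 135, 84.6 and 132 in p21Het, 136, 151, 124, 132 and 154 in p21mTert, 112 and 130.0 in p21mTertCD and 156 in WT, so the groups overlapped there. Ciliated cells numbered 129, 199 and 83 in p21Het and 100, 241, 223, 194 and 110 in p21mTert, and T cells of p21mTertCD library 2 held 46.4 CPM, against 6.48 in library 1. The part of these in the order over all cells was not tested. Its log2 fold change for p21mTertCD against p21Het was 0.87 ± 0.16 (SE) with an edgeR adjusted p of 0.0847, and 0.34 ± 0.13 for p21mTert against p21Het (adjusted p = 0.672, edgeR).

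Ddx58, the RNA sensor RIG-I, was 32.6, 25.8 and 34.5 in p21Het, 31.5, 31.5, 28, 31.2 and 32.3 in p21mTert, 41 and 41.2 in p21mTertCD and 28.8 in WT. Dhx58, the related regulator LGP2, was 8.39, 6.1 and 10.9 in p21Het, 7.6, 7.0, 4.96, 6.63 and 7.39 in p21mTert, with 11.7 and 10.8 in p21mTertCD and 7.17 in WT. For Ddx58 the p21mTertCD libraries lay above all others, while for Dhx58 they overlapped p21Het library 3.

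Ifit1, which binds viral RNA that lacks the host's cap mark, was 7.45, 5.64 and 10.4 in p21Het, 5.51, 8.84, 6.23, 6.8 and 10.1 in p21mTert, with 20.2 and 11.8 in p21mTertCD and 4.63 in WT. Mx1, a GTPase that blocks virus replication, was 5.42, 2.44 and 6.11 in p21Het, 4.12, 4.89, 2.32, 3.73 and 3.87 in p21mTert, with 6.49 and 7.38 in p21mTertCD and 3.81 in WT. Both had their 2 highest values in p21mTertCD, and neither was called (edgeR adjusted p = 0.567 for Ifit1 and 0.833 for Mx1, p21mTertCD against p21Het).

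Ifitm3 was 693, 394 and 1077 in p21Het, 604, 562, 349.6, 585 and 512 in p21mTert, 727 and 804 in p21mTertCD and 746 in WT. Samhd1, which destroys the nucleotides that retroviruses need, was 362, 196 and 478 in p21Het, 355, 271, 209, 256 and 349.6 in p21mTert, 373 and 402 in p21mTertCD and 359.7 in WT. In both genes p21Het library 3 was the highest of all and p21Het spanned the p21mTertCD values. About 14.0% of the 50-base words at the end of Ifitm3 transcripts and 8.70% of those of Samhd1 also occur in other genes, as do 56.1% of those of Oas1a (with Oas1g) and 14.9% of those of Ifit3 (with Ifit3b). Counts of these genes are uncertain, and the effect of the shared words on them was not tested.

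Rsad2 over all cells was 14.4, 46.2 and 53.5 in p21Het, 13.3, 31.2, 15.4, 17 and 43.8 in p21mTert, 55.8 and 28.4 in p21mTertCD and 10.6 in WT. The 2 higher p21Het values were in the libraries with most erythroid cells, and among p21mTert libraries with 189, 257 and 255 erythroid cells (2, 3 and 5) the level was 31.2, 15.4 and 43.8. In p21mTertCD library 1, the highest, neutrophils held 55.4% of Rsad2 UMIs. Without neutrophils Rsad2 was 26.6 there, and 44 and 45.4 in p21Het libraries 2 and 3. The part of erythroid cells in these values was not tested. The gene's order between genotypes differed inside the classical monocyte gate, as follows.

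In classical monocytes, 18 members rose in p21mTertCD relative to p21Het, out of 32 members that entered the fit, at an edgeR adjusted p under 0.05 over 9255 genes. The share of all genes called in that comparison was 0.594%, or 55 genes, all of them higher in p21mTertCD. All 32 log2 fold changes were above 0, with a median of 1.15 (all genes -0.02). Both p21mTertCD libraries lay above all 3 p21Het libraries for 30 of 32 members, against 5.62% of all genes. Since the genes were listed with these levels in view, the counts describe the set and test nothing about it.

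Among the transcription factors, Irf7, which amplifies type I interferon production, stood at 106, 53.5 and 82.1 CPM in p21Het, at 123, 136, 93.2, 159.8 and 141 in p21mTert, at 203 and 238 in p21mTertCD and at 106 in WT. The p21mTertCD libraries were the highest, and p21mTert overlapped the top p21Het library. Its log2 fold change for p21mTertCD against p21Het was 1.51 ± 0.23 (edgeR adjusted p = 0.0106). Stat2 was 29.4, 16.9 and 26 in p21Het, 38.5, 38.7, 20.9, 35.3 and 31 in p21mTert, with 52.2 and 50.9 in p21mTertCD and 29.8 in WT (1.14 ± 0.23, edgeR adjusted p = 0.0479). Irf9, the DNA-binding partner of STAT2, was not called.

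Of the ISG15 system, Isg15 was 100.4, 52.4 and 75.1 in p21Het, 159.8, 159, 93.2, 112 and 136 in p21mTert, 266 and 279 in p21mTertCD and 111 in WT. The log2 fold change was 1.91 ± 0.25 (edgeR adjusted p = 0.0042). The lowest p21mTertCD library was thus above every other library of the series.

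Of the 4 sensors, Ifih1 and Zbp1 were called in classical monocytes, while Ddx58 and Dhx58 were not. Ifih1, the sensor MDA5 of long double-stranded RNA, was 33.1, 20.8 and 31.4 in p21Het, 40.9, 44.2, 36.2, 41.3 and 30.4 in p21mTert, with 59.9 and 61.9 in p21mTertCD and 27.5 in WT (log2 fold change 1.15 ± 0.20, edgeR adjusted p = 0.0224). Zbp1, which binds left-handed nucleic acid and can start inflammatory cell death, was 111, 56.8 and 86.5 in p21Het, 94.6, 127, 86.2, 105 and 126 in p21mTert, with 212 and 204 in p21mTertCD and 91.2 in WT (1.36 ± 0.23, edgeR adjusted p = 0.0195). For Zbp1 p21mTert overlapped p21Het and p21mTertCD stood clear of both.

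Of the OAS family, whose enzymes make short oligoadenylates that switch on the RNA-cutting enzyme RNase L, 3 of 5 measured genes were called. Oas3 was 30.9, 22.9 and 30.0 in p21Het, 44.2, 64.2, 44.5, 50.7 and 57.6 in p21mTert, 95.7 and 106 in p21mTertCD and 27 in WT. The 3 groups did not overlap, with p21mTert in the middle. Its log2 fold change for p21mTertCD against p21Het was 1.90 ± 0.18 (edgeR adjusted p = 0.000647), the smallest adjusted p among the members in any lineage, and it was 0.97 ± 0.16 for p21mTert against p21Het (edgeR adjusted p = 0.0881). Oasl2 was 48.5, 21.3 and 36.6 in p21Het, 65.6, 52.4, 43.1, 74.4 and 58.9 in p21mTert, with 121 and 121 in p21mTertCD and 48.1 in WT (1.82 ± 0.24, edgeR adjusted p = 0.0037). Oas2, at 12.9, 5.46 and 10.7 in p21Het and 8.08, 15, 6.95, 10.5 and 11.2 in p21mTert, was 27.8 and 33.1 in p21mTertCD and 8.25 in WT (1.67 ± 0.31, edgeR adjusted p = 0.0298).

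Among proteins that restrict virus at the membrane, Bst2 was 130.5, 121 and 119 in p21Het, 178, 188, 178, 228 and 132 in p21mTert, with 241 and 264 in p21mTertCD and 144 in WT (1.10 ± 0.19, edgeR adjusted p = 0.0229). Here too these 3 groups did not overlap. Rtp4, an interferon-induced Golgi chaperone, was 21.3, 7.1 and 24.1 in p21Het, 26.6, 43.3, 26.4, 32 and 43.4 in p21mTert, with 75.6 and 72.7 in p21mTertCD and 27 in WT (2.07 ± 0.32, edgeR adjusted p = 0.0106). Trim30a, a TRIM-family protein, was 121, 85.8 and 139 in p21Het, 127, 151, 159, 134 and 172 in p21mTert, with 213 and 245 in p21mTertCD and 105 in WT (1.06 ± 0.18, edgeR adjusted p = 0.0208).

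For the nucleotide enzymes, Rsad2 was 33.5, 8.19 and 16.8 in p21Het, 41.9, 57.4, 30.6, 73.9 and 51.4 in p21mTert, with 81.5 and 71.3 in p21mTertCD and 37.1 in WT (2.03 ± 0.38, edgeR adjusted p = 0.0307). The p21mTert library 4 value of 73.9 lay between the p21mTertCD values. Cmpk2, a mitochondrial nucleotide kinase encoded beside Rsad2, was 14, 7.1 and 11.3 in p21Het, 13.3, 14.1, 13.9, 18.7 and 19.8 in p21mTert, with 23.4 and 33.8 in p21mTertCD and 9.62 in WT (1.43 ± 0.25, edgeR adjusted p = 0.0211).

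Of the ADP-ribosylation group, Parp9 was 39, 27.9 and 35.7 in p21Het, 32.3, 35.5, 43.1, 35.3 and 47.1 in p21mTert, with 64.1 and 58.3 in p21mTertCD and 37.6 in WT (0.90 ± 0.17, edgeR adjusted p = 0.0307). Parp14 was 87.9, 50.3 and 81.4 in p21Het, 85.6, 99.8, 86.2, 90.4 and 88 in p21mTert, with 163 and 146 in p21mTertCD and 73.3 in WT (1.14 ± 0.19, edgeR adjusted p = 0.0197). In both, p21mTert overlapped p21Het and p21mTertCD did not. Dtx3l, the ubiquitin ligase that pairs with PARP9, was not called.

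The last group holds other induced proteins. Ifi27l2a was 1017, 466 and 1188 in p21Het, 1135, 1975, 1156, 1597 and 1487 in p21mTert, with 2776 and 3161 in p21mTertCD and 1044 in WT (1.81 ± 0.32, edgeR adjusted p = 0.0228). Ifi35 was 61.4, 44.8 and 53.3 in p21Het, 65.2, 59.2, 70.9, 62.8 and 68.2 in p21mTert, with 82.6 and 89.7 in p21mTertCD and 57.7 in WT (0.76 ± 0.13, edgeR adjusted p = 0.0229). Xaf1, which promotes cell death, was 54.4, 29.5 and 36 in p21Het, 47.1, 53.7, 40.3, 45.2 and 60.7 in p21mTert, with 75.8 and 88.4 in p21mTertCD and 39.9 in WT (1.10 ± 0.21, edgeR adjusted p = 0.0355). The p21mTertCD libraries were the highest of the series for all of these.

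**Figure D3:**
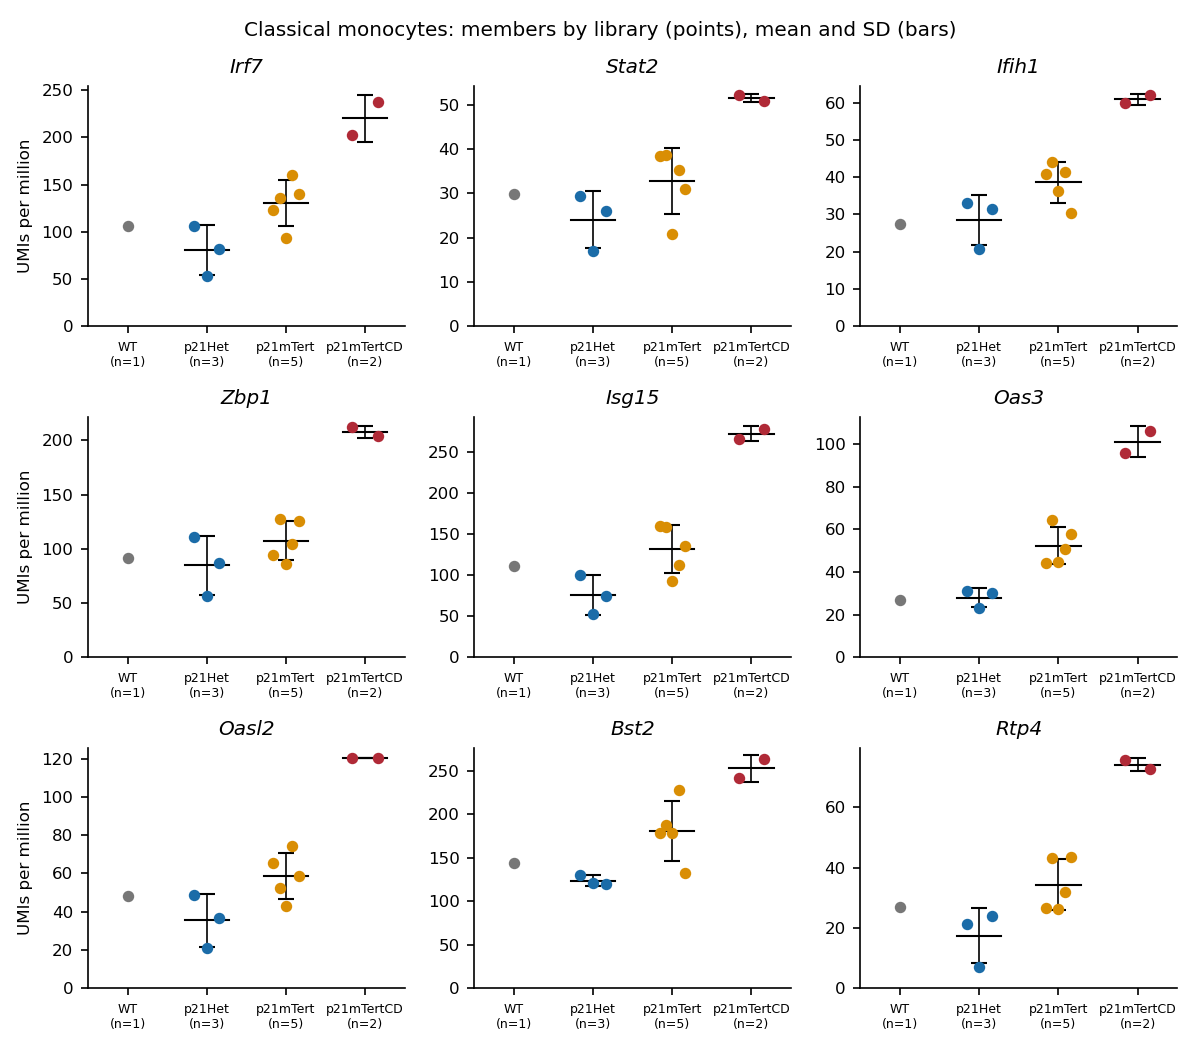
CPM in classical monocytes for 9 genes, 1 point per library, with the mean (line) and SD (bar) of each genotype on linear axes that start at 0. The 2 p21mTertCD points lie above every other point in all 9 panels, for Oas3 at 95.7 and 106 against at most 64.2 in p21mTert and 30.9 in p21Het.

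Library p21Het 2 was the lowest of the 11 for 26 of the 33 genes in classical monocytes, with a median log2 deviation of -0.98. Without it 14 members were called and without p21Het library 3 6. With a p21mTertCD library left out that group is 1 library, assumed to vary like the other groups, and most of the calls were lost. The share of all genes called in these fits and in the later deposit alone is not given here. The counts thus do not show whether other genes gained or lost calls alongside. Within the later deposit alone the count was 18, of which 16 were among the 18 called over both deposits. A further fit within the later deposit took the replicate numbers of the titles as a block. It called 0 members in any lineage (0.054% of all pairs of a gene and a lineage). DESeq2 called 21 of 33, and 0.247% of all such pairs over the 11 lineages together. Only Oas3 kept its call whichever of the 10 libraries was left out, and the direction of all 18 was the same each time.

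Markers of other lineages were also summed within classical monocytes. The gate's own 8 markers summed to 6135 to 10211 CPM in p21Het, 5584 to 7650 in p21mTert and 6822 to 9481 in p21mTertCD, which overlap. Ciliated markers ran from 172 to 275 in p21Het and from 304 to 365 in p21mTertCD. Conventional dendritic markers ran from 297 to 342 in p21Het and from 345 to 408 in p21mTertCD, and NK markers were near 0 (0.37 to 0.55 and 0.67 to 1.06). Endothelial and B cell markers were lower in p21mTertCD, and neutrophil and plasmacytoid dendritic markers overlapped. The part of these in the result was not tested.

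Between p21mTert and p21Het no member was called in classical monocytes by edgeR, although 17 had an unadjusted p under 0.05 (5.54% of all genes) and DESeq2 called 5. The share of all genes called by edgeR was 0.0216%. Over the 11 lineages together DESeq2 called 0.0564% of all pairs of a gene and a lineage. Of the 32 log2 fold changes, 31 were above 0 and the median was 0.52. Every p21mTert value exceeded every p21Het value for 4 members, Oas3 and Bst2 among them, against 0.972% of genes. Group means rose in the order p21Het, p21mTert, p21mTertCD for 31 of 32 members, an order that 11.5% of all genes in that fit showed. The same order held for 6 of 33 members over all cells (14.3% of genes), 15 of 30 in endothelial cells (12.1%), 12 of 30 in non-classical monocytes (12.2%), 22 of 30 in neutrophils (16.5%) and 21 of 31 in T cells (20.9%).

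Against p21mTertCD, p21mTert classical monocytes had 0 members called by edgeR (0.0324% of all genes called, 22 members and 5.12% of genes with an unadjusted p under 0.05, 7 called by DESeq2). DESeq2 called 0.192% of all pairs of a gene and a lineage in this comparison. The median log2 fold change was -0.75, with 0 of 32 above 0. All p21mTert libraries lay below both p21mTertCD libraries for 25 members, against 4.91% of genes. For Isg15 the value was -1.03 ± 0.23 (edgeR adjusted p = 0.202), and for Oas2 -1.50 ± 0.29 (edgeR adjusted p = 0.128).

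In non-classical monocytes, the patrolling monocytes of the vessel wall, 7 members of 30 rose in p21mTertCD relative to p21Het (0.298% of 8713 genes called, all higher), and the same 7 were lower in p21mTert than in p21mTertCD (0.333% of genes called, 0.321% lower). They were Irf7, Zbp1, Oasl2, Bst2, Rtp4, Ifi27l2a and Xaf1, all of them also called in classical monocytes. Both comparisons share the p21mTertCD libraries. No member was called between p21mTert and p21Het (0.0689% of genes called), where 0 had an unadjusted p under 0.05 (7.62% of genes) and DESeq2 called 0, and the median log2 fold change was -0.06.

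Oasl2 was 7.25, 5.5 and 12.2 CPM in p21Het non-classical monocytes, 11, 9.85, 9.62, 7.35 and 11.9 in p21mTert, 45.3 and 35.7 in p21mTertCD and 8.12 in WT. Rtp4 was 4.83, 7.23 and 6.08 in p21Het, 3.99, 11.6, 9.62, 8.02 and 6.25 in p21mTert, with 45.3 and 35.7 in p21mTertCD and 9.47 in WT. For both genes the p21Het and p21mTert libraries overlapped, and both p21mTertCD libraries stood above them. The log2 fold change for p21mTertCD against p21Het was 2.37 ± 0.30 for Oasl2 (edgeR adjusted p = 0.00586) and 2.69 ± 0.37 for Rtp4 (edgeR adjusted p = 0.00884).

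Xaf1 was 6.04, 11 and 9.95 in p21Het, 12, 13.9, 9.62, 14 and 12.5 in p21mTert, with 40.8 and 30.1 in p21mTertCD and 25.7 in WT. Zbp1 was 95.4, 49.5 and 71.3 in p21Het, 63.9, 73.9, 83.8, 78.8 and 81.3 in p21mTert, with 205 and 134 in p21mTertCD and 78.5 in WT. In each the p21mTertCD libraries were the 2 highest of the series, library 1 above library 2. The WT value of Xaf1 lay above every p21Het and p21mTert library, and its exact 95% interval, 18.2 to 35.3, covers p21mTertCD library 2. Their log2 fold changes against p21Het were 1.91 ± 0.29 (edgeR adjusted p = 0.0173) and 1.37 ± 0.24 (edgeR adjusted p = 0.0295).

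Irf7 was 65.2, 53.2 and 62.5 in p21Het, 50.9, 47.5, 66.6, 70.8 and 60.6 in p21mTert, with 114 and 113 in p21mTertCD and 77.1 in WT. Bst2 was 65.2, 53.2 and 55.8 in p21Het, 55.9, 45.2, 46.7, 48.1 and 57.5 in p21mTert, with 93.2 and 105 in p21mTertCD and 75.1 in WT. Ifi27l2a was 407, 142 and 526 in p21Het, 292, 383, 286, 347 and 349 in p21mTert, with 1036 and 1162 in p21mTertCD and 437 in WT. For Irf7 and Bst2 the WT value lay above all p21Het and p21mTert libraries and below both p21mTertCD libraries. Unlike the Bst2 values in classical monocytes, where all p21mTert libraries were above p21Het, those of non-classical monocytes overlapped between these 2 groups. That difference between the lineages was not tested. With a p21mTertCD library left out that group is 1 library. Calls were then lost, in both comparisons without library 1. Of the 7, 4 were called for p21mTertCD against p21Het without p21Het library 2 or p21Het library 3. For p21mTert against p21mTertCD 4 were called without p21mTert library 4. The share of all genes called in these fits is not given here.

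Isg15 was not called in non-classical monocytes (20.5, 28.6 and 17.7 in p21Het, 25.9, 25.5, 25.4, 8.69 and 10.0 in p21mTert, 62.1 and 25.7 in p21mTertCD and 20.3 in WT). The second p21mTertCD library lay inside the p21Het range. In WT classical monocytes it was 111.

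Neutrophils, which carry the highest Isg15 and Oasl2 levels, had 2 members called between p21mTertCD and p21Het, and these were the only genes called there (0.026% of 7683 genes). Ifi27l2a was 239, 113 and 276 CPM in p21Het, 395, 572, 294, 363 and 407 in p21mTert, 1848 and 1068 in p21mTertCD and 221 in WT. Rtp4 was 39.2, 41 and 67.4 in p21Het, 75.8, 92.7, 45.3, 67.2 and 102 in p21mTert, with 254 and 217 in p21mTertCD and 71 in WT. For Ifi27l2a the 3 groups did not overlap, and for Rtp4 p21mTert overlapped p21Het. The log2 fold changes against p21Het were 2.78 ± 0.35 (edgeR adjusted p = 0.0201) and 2.15 ± 0.31 (edgeR adjusted p = 0.0443).

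Both genes were also lower in p21mTert neutrophils than in p21mTertCD, by -1.92 ± 0.30 and -1.67 ± 0.27 on the log2 scale (edgeR adjusted p = 0.0196 and 0.0213, 0.299% of genes called, 0.286% lower). Neither was called for p21mTertCD against p21Het without p21Het library 1, p21Het library 2, p21mTert library 4 or p21mTertCD library 1, nor against p21mTert without p21mTert library 4 or p21mTertCD library 1. Isg15 in neutrophils was 216, 221 and 244 in p21Het, 305, 413, 236, 339 and 513 in p21mTert, with 731 and 583 in p21mTertCD and 257 in WT. It was not called (1.48 ± 0.29, edgeR adjusted p = 0.126). In neutrophils p21Het library 3 was thus close to the other p21Het libraries, although over all cells it was the highest of them.

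The median log2 fold change of the 30 members fitted in neutrophils was 1.28 for p21mTertCD against p21Het, with 30 of 30 above 0, and 25 of them had both p21mTertCD libraries above all p21Het libraries (7.65% of genes). For p21mTert against p21Het it was 0.24, with 0 members called by edgeR (0% of genes), 3 with an unadjusted p under 0.05 (6.48% of genes) and 0 called by DESeq2.

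Among the other 8 of the 11 lineages fitted, edgeR called a single member, Xaf1 in T cells. Alveolar type 1, ciliated, interstitial macrophage, plasmacytoid dendritic and erythroid cells were gated but not fitted. It was 13.5, 12.4 and 13.9 CPM in p21Het, 15.4, 16.1, 17.4, 14.9 and 21.1 in p21mTert, 28.4 and 26.2 in p21mTertCD and 16 in WT. The 3 groups did not overlap, and the log2 fold change for p21mTertCD against p21Het was 1.10 ± 0.15 (edgeR adjusted p = 0.0287, with 0.0822% of genes called, 0.0411% higher). Of the 31 members fitted in T cells, 30 had a log2 fold change above 0, with a median of 0.68. DESeq2 called 10 members there for p21mTertCD against p21Het and 4 for p21mTert against p21mTertCD. Its share of all genes in T cells is not given here. Over the 11 lineages together DESeq2 called 0.247% and 0.192% of all pairs of a gene and a lineage in these comparisons.

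Endothelial cells, the lining of the capillaries, had 0 of 30 members called for p21mTertCD against p21Het by edgeR (0.00875% of genes called), 24 at an unadjusted p under 0.05 (4.88% of genes) and 7 by DESeq2. For p21mTert against p21mTertCD edgeR called 0 there, with 1 of 11427 genes called, and DESeq2 called 11. DESeq2's share of all genes in endothelial cells is not given here. All 30 log2 fold changes were above 0 (median 0.81), and 24 members had both p21mTertCD libraries above all p21Het libraries (5.66% of genes). The 2 p21mTertCD libraries differed from each other: library 1 was the highest of the 11 for 29 of 33 genes and library 2 for 1. Isg15 was 58, 70.4 and 52.6 in p21Het, 71.2, 60.8, 53.4, 51.4 and 63.8 in p21mTert, with 186 and 73.9 in p21mTertCD and 57.6 in WT.

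AT2 cells had a median of 0.69 over 23 members fitted for p21mTertCD against p21Het. There p21mTertCD library 1 was the highest of the 11 for 27 of 33 genes and library 2 for 1, as for Isg15, at 22.5 in library 1 and 2.59 in library 2. Both p21mTertCD libraries lay above all p21Het libraries for 4 of the 23 (5.1% of genes), among them Trim30a at 9.78 and 8.33 against at most 4.11. Conventional dendritic cells had a median of 0.56 over 23. B cells had 0.27 over 30 members and NK cells 0.16 over 13. Fibroblasts had -0.01 over 26 members and alveolar macrophages -0.04 over 22. In fibroblasts p21Het library 3 was the highest of the 11 for 26 of 33 genes, with Isg15 at 162 against 20.7 and 71.3 in the other p21Het libraries. For p21mTertCD against p21Het none of these 6 lineages had a member called by edgeR, and 0% of genes were called in each. DESeq2 called 0 in each. An unadjusted p was under 0.05 for 4 members in AT2 cells (3.46% of genes), 7 in conventional dendritic cells (3.66%), 2 in B cells (3.49%), 4 in NK cells (6.54%), 3 in fibroblasts (3.68%) and 2 in alveolar macrophages (2.15%).

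For p21mTert against p21Het the medians were -0.45 in fibroblasts, with 3 of 26 above 0, and -0.23 in alveolar macrophages, with 6 of 22 above 0. No member was called there by edgeR (0.0195% and 0.0389% of genes) or DESeq2, and an unadjusted p was under 0.05 for 6 members in fibroblasts (5.5% of genes) and 4 in alveolar macrophages (6.46%).

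Over the 11 lineages together, edgeR fitted 290 pairs of a member and a lineage among 108064 pairs of any gene and a lineage. For p21mTertCD against p21Het it called 28 of the 290 (0.087% of all pairs), and DESeq2 called 54 of 363 (0.247%). For p21mTert against p21mTertCD edgeR called 9 (0.0629%) and DESeq2 33 (0.192%). For p21mTert against p21Het edgeR called 0 (0.0241%), with 37 at an unadjusted p under 0.05 (5.16% of all pairs), and DESeq2 called 5 (0.0564%), all in classical monocytes.

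**Figure D4:**
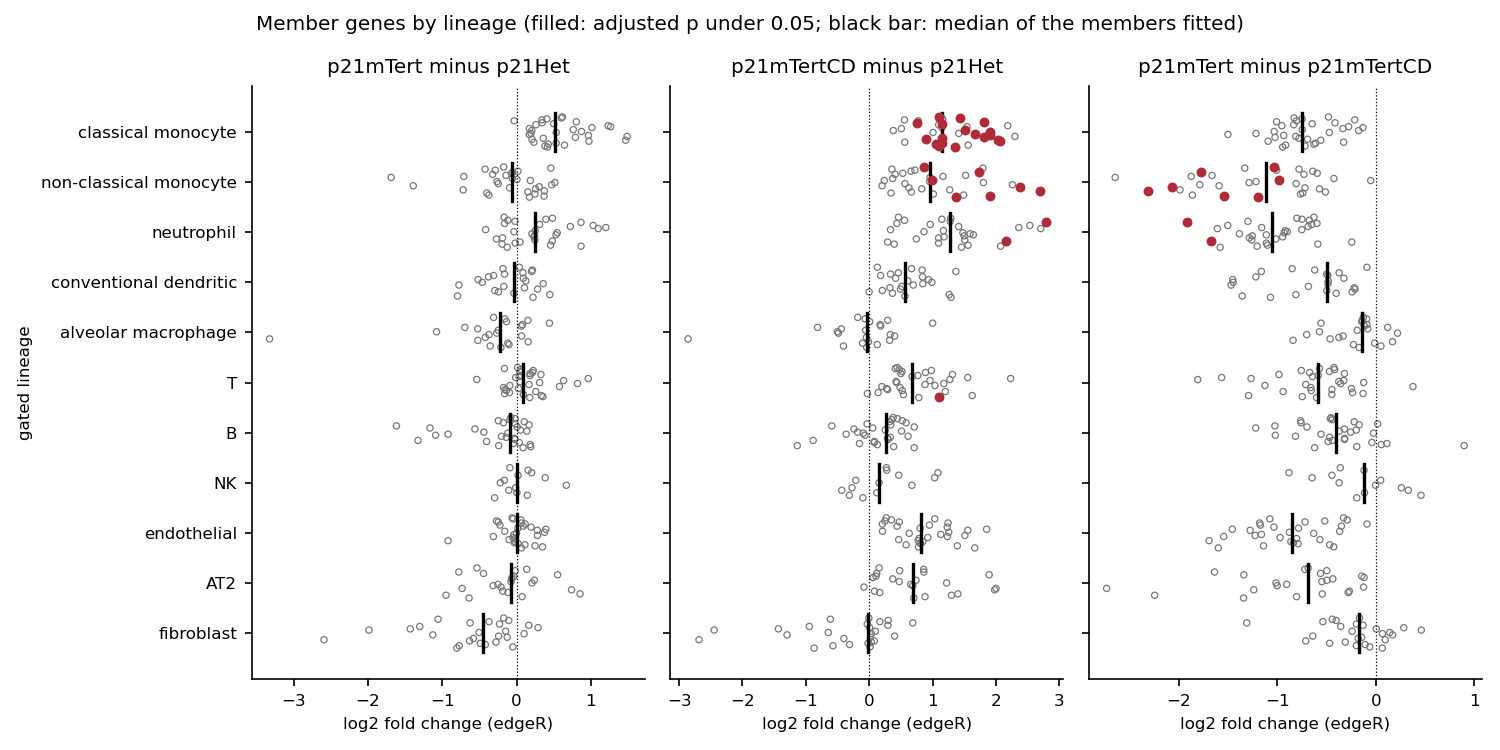
Log2 fold change of each member fitted (points) in 11 lineages (rows) for the 3 genotype comparisons (panels), filled where the edgeR adjusted p is under 0.05, with the members' median as a black bar. The x axes differ between panels. For p21mTertCD minus p21Het, filled points lie in both monocyte rows and in the neutrophil and T rows. For p21mTert minus p21mTertCD they lie only in the non-classical monocyte and neutrophil rows. The p21mTert minus p21Het panel has none.

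Genes of the same pathway that are not members came from lists chosen with earlier results of these data known. Among 21 interferon ligand genes, 11 had 0 UMIs in every library and 9 had 1 to 30, for 75 UMIs in all, so a change in them was not detectable at this depth. Ifnb1 had 13 UMIs in WT and 6 in p21mTert library 2. The exception was Ifng, made by activated T and NK cells, with 5431 UMIs, 73.7% of them in T cells. Its UMIs per library were 330, 272 and 139 in p21Het, 485, 405, 652, 383 and 334 in p21mTert, 1524 and 489 in p21mTertCD and 418 in WT.

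In T cells, Ifng was, in CPM, 31.2, 21 and 10.3 in p21Het, 44.2, 32.5, 59, 31.4 and 45.6 in p21mTert, with 92.2 and 29.0 in p21mTertCD and 33.3 in WT. One p21mTertCD library was thus the highest of the series and the other lay below p21Het library 1 and WT, and Ifng was not called in any lineage.

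Of 13 upstream nucleic-acid-sensing genes fitted in classical monocytes, 0 were called in any of the 3 comparisons by edgeR, and their median log2 fold change for p21mTertCD against p21Het was 0.18.

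Of 35 other interferon-stimulated genes fitted in classical monocytes, 9 were called higher in p21mTertCD than in p21Het, with a median of 0.88. The share of all genes called there was 0.594%, all of them higher. As this list too was chosen with earlier results known, the count describes it and tests nothing about it. Lgals3bp, a secreted galectin-binding protein, was 51.1, 36.1 and 48.3 CPM in p21Het, 59.9, 68.3, 57, 67.2 and 58.9 in p21mTert, with 116 and 149 in p21mTertCD and 44 in WT. Phf11d, a PHD-finger protein, was 10.3, 4.92 and 8.07 in p21Het, 23.3, 18.2, 20.9, 20.9 and 24.2 in p21mTert, with 33.1 and 37.5 in p21mTertCD and 11.9 in WT. Phf11d was the 1 gene of this list called between p21mTert and p21Het, where 0.0216% of all genes were called (log2 fold change 1.49 ± 0.19, edgeR adjusted p = 0.0379). In both genes the 3 groups did not overlap.

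The sums above do not say whether few cells carried many transcripts, so cells were also counted. Each cell was thinned at random to 1000 UMIs, which left no cell out, and counted if it held UMIs of at least 3 of 12 core members (Isg15, Ifit1, Ifit2, Ifit3, Ifit3b, Rsad2, Oasl1, Oasl2, Cmpk2, Usp18, Mx1 and Ifi44). In neutrophils the share was 3.28%, 2.67% and 2.81% in p21Het, 4.01%, 6.07%, 0.823%, 3.46% and 4.63% in p21mTert, 17.2% and 10.8% in p21mTertCD and 3.64% in WT. The exact binomial intervals (95%, counting error only) of the p21mTertCD libraries were 14.7% to 19.9% and 7.83% to 14.3%. Both p21mTertCD libraries lay above all others, while p21mTert, at 3.80% ± 1.93 (SD, n = 5), spanned p21Het, at 2.92% ± 0.321 (SD, n = 3).

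In endothelial cells the share was 1.49%, 0.947% and 0.662% in p21Het, 0.806%, 0.877%, 0.571%, 1.05% and 1.71% in p21mTert, with 4.31% and 2.43% in p21mTertCD and 0.978% in WT. The p21mTertCD libraries were again the highest. In classical monocytes it was 1.93%, 0% and 1.74% in p21Het, 4.50%, 2.12%, 0%, 3.85% and 2.04% in p21mTert, with 4.51% and 4.42% in p21mTertCD and 1.89% in WT, and here p21mTert library 1 reached between the p21mTertCD values. The 0 of p21Het library 2 rests on 149 cells, for which 3 cells would be a share of 2.01% and the exact 95% limit is 2.45%, and that of p21mTert library 3 on 68 cells (4.41% and 5.28%). The exact limit of p21mTert library 3 covers both p21mTertCD values. Other lineages differed. In non-classical monocytes the mean share was 0.139% in p21Het, 0.0763% in p21mTert and 0.397% in p21mTertCD (1 of 292 cells). In T cells it was 0.152%, 0.238% and 0.517% in that order. The p21mTertCD mean was not the highest in fibroblasts (1.24%, 1.25% and 0.209%) or interstitial macrophages (0.847%, 0% and 0%, with 1.82% in WT). Nor was it in ciliated cells (0.928%, 0.2% and 0.714%), NK cells (0%, 0.156% and 0%) or B cells (0.0642%, 0% and 0.0393%). In AT1 cells, with 1, 4 and 1 libraries, it was 2.27%, 1.67% and 0%. Alveolar macrophages had no such cell in any of the 11 libraries among 2033 cells, AT2 cells 1 of 4164 and B cells 4 of 14721, at the same 1000 UMIs per cell.

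**Figure D5:**
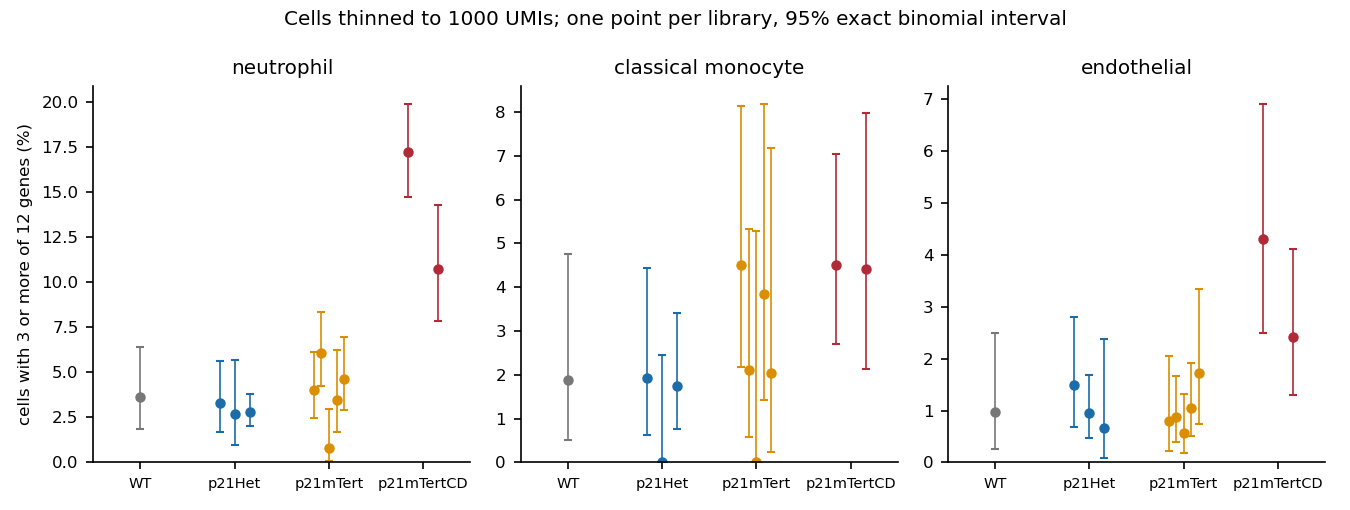
Percent of cells, thinned to 1000 UMIs, with UMIs of at least 3 of 12 core members, 1 point per library with its exact 95% binomial interval, by genotype and lineage; the y scales differ between panels. In neutrophils the p21mTertCD points are at 17.2% and 10.8%, and no other point is above 6.07%.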

How the data were processed

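Single-cell RNA was measured in 11 lung libraries. The authors deposited UMI counts per gene and barcode for each library. Per the file headers these were made with Cell Ranger 3.1.0, while the series' design text names an earlier pipeline version and the mm10 genome, and filters before deposit are not given in the sources used here. Members and lists were chosen with earlier results of these data known.

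Barcodes outside 1000 to 30000 UMIs or above 14% mitochondrial UMIs were dropped, and the rest gated by markers. Doublets were left in, except in an alternative that used Scrublet through scanpy 1.11.5. UMIs were summed per library and lineage, leaving out libraries under 20 cells of a lineage. The 10 replicated libraries entered 1 fit over all cells and 1 for each of 11 lineages (the other 5 gated lineages were not fitted) in edgeR 4.0.16 (R 4.3.3; TMM scaling, filterByExpr, quasi-likelihood test), with p-values adjusted by Benjamini-Hochberg over all genes fitted. On simulated counts with 4-fold changes, 95.0% of changed genes were recovered for p21mTert against p21Het and 89.9% for p21mTert against p21mTertCD over all cells (17308 genes, 10 and 4 false calls), and 92.4% and 88.3% in neutrophils (7344 genes, 8 and 15 false calls). No change was simulated for p21mTertCD against p21Het, and classical monocytes were not simulated. The members' median changes given above are all smaller than 4-fold, so these shares do not give the recovery of such changes. Library totals of 42038434 to 85988955 UMIs, and 68 to 459 classical monocytes per library, set the precision. UMIs do not separate fewer cells of a type from less RNA per cell in sums over all cells.

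The genes named are members called in any lineage, the 6 with the smallest p over all cells for p21mTert against p21Het, and the highest of each role. Ifit3, shown for its promoter, is outside this rule. Alternatives were DESeq2 1.42.0, other scaling, filter, gate, barcode, deposit, doublet and replicate-block settings, and each library left out. The list of receptor and proximal signalling genes is not reported here.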

Additional observations from a re-analysis of the deposited data

Results flagged for a closer look

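In 6 of 100 groups of 5 p21mTert libraries examined, 1 library lay far from the other 4, where chance alone gives about 1 in 20. Over all cells p21mTert library 3 was low for Irf7 (19.9 CPM) and for Ddx58 (28). In classical monocytes p21mTert library 5 was high for Dhx58 (38.4) and p21mTert library 3 was low for Samhd1 (830.4). In non-classical monocytes p21mTert library 3 was high for Cmpk2 (14.4) and p21mTert library 1 was low for Ifi35 (24.9).

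For 2 genes called higher in p21mTertCD than in p21Het in both monocyte lineages, both p21mTertCD libraries lay below every p21Het library in another lineage. The log2 fold change of Irf7 was -0.65 in fibroblasts, and that of Zbp1 was -0.10 in NK cells. The NK value rests on 43 and 49 cells in the p21mTertCD libraries. The lowest Zbp1 value over the lineages fitted was -0.87, with 8 of 11 lineages above 0. How many of all genes showed this pattern is not given here, so it is not known to be unusual. These differences between lineages were not tested.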

How the results depend on the processing

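All 37 calls of a member in a lineage kept their direction in the 20 alternatives. Of these, 28 were for p21mTertCD against p21Het and 9 for p21mTert against p21mTertCD. Every member and lineage of the 9 is also among the 28. Over all cells DESeq2 called 17 members for p21mTert against p21mTertCD and 4 for p21mTertCD against p21Het, and its share of all genes there is not given. Pairs called for p21mTert against p21Het were 5 with DESeq2 (0.0564% of all pairs of a gene and a lineage), 17 with no filter (0.464%) and 1 with doublets left out (0.0266%). For p21mTert against p21mTertCD they were 33 with DESeq2 (0.192%), 75 with no filter (0.49%) and 0 with the replicate block within the later deposit (0.0642%), and for p21mTertCD against p21Het 54 (0.247%), 75 (0.385%) and 0 (0.054%). The block fit left out the libraries of the first deposit, so it changed 2 settings at once. In the titles 5 of the 8 later libraries share a replicate number, 2 or 3, with another genotype. No label says that a number marks a shared batch, so the numbers were not taken as pairs. The deviations of same-numbered libraries correlated by -0.196 and -0.486 between p21Het and p21mTert, and with numbers 2 and 3 of p21Het exchanged by 0.196 and 0.486. The later p21Het group has 2 libraries, whose deviations mirror each other, so these values cannot test the pairing. The cause of the calls lost in the block fit, which changed both the block and the libraries kept, was not tested.

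Leaving out 1 library at a time, member counts over all cells ran from 0 to 0, 0 to 3 and 0 to 6 for p21mTert against p21Het, p21mTert against p21mTertCD and p21mTertCD against p21Het. Pair counts ran from 0 to 0, 1 to 22 and 2 to 27, and medians from -0.34 to 0.11, -0.95 to -0.66 and 0.42 to 0.93. The shares of all genes and of all pairs called in these fits are not given here. The counts thus do not show whether other genes gained or lost calls too. For p21mTert against p21Het over all cells the log2 fold change spanned 0: Irf7 -0.30 to 0.46, Isg15 -0.49 to 0.38, Ddx58 -0.13 to 0.082, Zbp1 -0.29 to 0.16, Ifit1 -0.27 to 0.20, Oas2 -0.78 to 0.17, Oas3 -0.64 to 0.53, Oasl2 -0.78 to 0.58, Rtp4 -0.31 to 0.56, Trim30a -0.61 to 0.23, Cmpk2 -0.14 to 0.13, Samhd1 -0.58 to 0.062, Parp14 -0.19 to 0.10 and Ifi27l2a -0.51 to 0.53. Each of these turned without p21Het library 3, except Cmpk2, which turned without p21Het library 2, p21mTert library 2 or 5 or p21mTertCD library 2. Irf7 and Rtp4 turned also without p21mTert library 3. For p21mTert against p21mTertCD Ifi35 spanned -0.13 to 0.0041 (turned without p21mTert library 1). For p21mTertCD against p21Het Ifitm3 spanned -0.17 to 0.59 and Samhd1 -0.069 to 0.57 (turned without p21Het library 2), and Rsad2 -0.49 to 0.61 (turned without p21Het library 1 or p21mTertCD library 1).

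Other reversals over all cells were these. With neutrophils left out, Irf7 was 0.0023, Rtp4 0.051 and Cmpk2 -0.025 for p21mTert against p21Het, and Rsad2 -0.58 for p21mTertCD against p21Het. Cmpk2 was also -0.017 with DESeq2 size factors, -0.019 in DESeq2, -0.0051 with no filter and -0.064 over all barcodes. Rsad2 was also -0.12 with a deposit term, -0.25 in the later deposit alone and -1.13 with the replicate block within the later deposit. In that last fit Ifih1 was -0.068. The cause of these was not tested.

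Shares of cells with several members depend on depth and threshold. Unthinned, the means in p21Het, p21mTert and p21mTertCD were 9.57%, 13.9% and 36.2% of neutrophils and 12.2%, 19.1% and 45.5% of classical monocytes. With at least 2 members they were 7.57%, 11.4% and 28%, and 2.76%, 5.75% and 12.8%. With a gate of 4 markers the p21mTertCD mean in classical monocytes was 4.60%.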
